A study of Mus musculus with 21 samples.

Results

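Activin and TGF-beta signalling was described through 10 genes in the mouse dentate gyrus: the activin subunit genes *Inhba* and *Inhbb*, the activin antagonist *Fst*, the receptor genes *Acvr1c*, *Acvr2a* and *Tgfbr1*, and the regulators *Pmepa1*, *Smad7*, *Skil* and *Klf10*. They are 10 of the 18193 genes that had a probe set of their own on the array. They were chosen by measured values, with earlier results of these arrays known: *Fst*, *Inhba* and *Pmepa1* for their rise after doxycycline removal against the doxycycline diet, and *Klf10* for its rise against monotransgenic mice. All values of the 10 genes in the 3 groups of that array set are therefore a description, and no p-value is given there for any single gene. Counts of the 10 past a threshold there stand only beside those of all genes and are no test. For single genes of the 10, p-values are given only for arrays that played no part in the choice.

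Activins are dimers of inhibin beta subunits. They bind a type II receptor such as the product of *Acvr2a*, which then activates a type I receptor that phosphorylates Smad proteins; TGF-beta acts in the same way through its own receptors. Follistatin, the product of *Fst*, binds activin outside the cell, and several genes that the pathway induces, among them *Smad7*, *Skil* and *Pmepa1*, dampen the signal that induced them. In the hippocampus, *Inhba* is known as a gene that strong synaptic activity induces in granule cells of the dentate gyrus.

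The study used mice with a transgene for the Nogo receptor NgR (gene *Rtn4r*) that is driven by the transactivator tTA and silenced by doxycycline, and measured total RNA of the dentate gyrus on 21 Affymetrix arrays, 3 in each of 7 groups. Set 1 held bitransgenic mice (NgR transgene and tTA) on water after doxycycline was removed, bitransgenic mice fed doxycycline in the diet throughout, and monotransgenic mice, which lack tTA, also on water with doxycycline removed. Experiment 2 held bitransgenic mice on water that had never been given doxycycline and monotransgenic mice on water. Set 3 held bitransgenic and monotransgenic mice, and its labels give no treatment. For experiment 2 and set 3 the labels do not say which transgene the monotransgenic mice carried. The promoter that drives tTA, the age and the strain of the mice are not given in the labels. The diet group differed from the removed group in doxycycline as well as in the transgene, so the drug and the transgene cannot be told apart in that comparison. The labels do not say whether the samples of a group came from separate animals. The p-values then reflect only how far these samples spread, which may be technical. In tissue RNA, fewer cells of a type and less RNA per cell cannot be told apart.

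The transgene's own gene checked the labels. *Rtn4r* intensity was 1469, 329 and 254 after doxycycline removal, 111, 87.0 and 73.1 on the diet and 63.8, 98.4 and 79.0 in set 1 monotransgenic mice. In experiment 2 it was 605, 365 and 753 against 114, 185 and 123, and in set 3 672, 755 and 562 against 133, 112 and 85.9, so that the removed group and the bitransgenic groups of experiment 2 and set 3 each lay above the other groups of their set. *Prox1*, a transcription factor of dentate granule cells, was between 318 and 951 in all 21 arrays, and *C1ql2*, another granule cell marker, was between 135 and 1234. The 10 genes had 22 probe sets of their own, of which 17 passed the filter on low values, with at least 1 for each gene. Where a gene is given 1 value, it comes from its brightest probe set.

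Promoters are shown for the ligand gene that rose most and for the receptor gene that fell, since these 2 moved in opposite directions between the removed and diet groups. RefSeq's table (build GRCm38.p6) held 7 promoters of 5 of the genes, each from 250 bases before a transcription start to 50 after it. Capitals mark a match to the letters of a TATA box in the first and to those of CCAAT and GC boxes in the second.
Inhba, chr13:16011601-16011900, plus strand: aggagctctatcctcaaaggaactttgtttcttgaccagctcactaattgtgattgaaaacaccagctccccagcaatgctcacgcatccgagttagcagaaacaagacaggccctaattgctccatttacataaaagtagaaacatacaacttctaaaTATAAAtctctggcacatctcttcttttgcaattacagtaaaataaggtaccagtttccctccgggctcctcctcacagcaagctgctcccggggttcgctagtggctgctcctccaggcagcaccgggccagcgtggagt
Tgfbr1, chr4:47352972-47353271, plus strand: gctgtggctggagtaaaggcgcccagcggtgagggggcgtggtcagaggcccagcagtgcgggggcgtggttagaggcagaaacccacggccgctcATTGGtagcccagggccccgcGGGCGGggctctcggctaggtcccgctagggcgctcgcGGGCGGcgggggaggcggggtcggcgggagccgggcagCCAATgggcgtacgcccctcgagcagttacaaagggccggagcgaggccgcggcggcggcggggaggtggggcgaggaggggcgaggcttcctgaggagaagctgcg
The *Inhba* promoter was 47.7% G or C with 7 CpG dinucleotides, and the *Tgfbr1* promoter shown was 74.7% with 34. Searched on both strands, the *Inhba* promoter held TATAAA from -91 to -86, a motif in 13.6% of 32851 promoters of the same length. The *Tgfbr1* promoter shown held CCAAT (in 37.4% of promoters) in 2 places and GGGCGG (35.7%) in 2 places. Neither window shown held CAGAC, the core of the Smad box (49.6%), the paired Smad box GTCTAGAC (0.213%), the cyclic AMP response element TGACGTCA (1.79%), its TGACG part (20.8%) or the AP-1 site TGANTCA (7.81%). The table's second *Tgfbr1* promoter, not shown, was 52.0% G or C with 3 CpG dinucleotides and held CAGAC from -203 to -199. These are matches of letters only, and the motifs overlap in that TGACG is part of TGACGTCA.

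*Inhba*, which codes for the inhibin beta A subunit that forms activin A, was high after doxycycline removal. Its intensity was 535, 505 and 670 in the removed group, 122, 134 and 107 on the diet and 127, 105 and 208 in the monotransgenic mice of set 1. Every array of the removed group lay above the 6 others of the set, and the diet and monotransgenic groups overlapped. On the normalized log2 scale, the removed group differed by 2.08 ± 0.39 from the diet, or 4.24-fold, and by 1.88 ± 0.39 from the monotransgenic mice. Here and below, the SE (n = 3 against 3) comes from the spread within all 7 groups.

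In the sets that were not used to choose it, *Inhba* varied widely among monotransgenic arrays. It was 303, 640 and 199 in bitransgenic against 341, 429 and 186 in monotransgenic mice of experiment 2. It was 411, 315 and 281 against 111, 384 and 141 in set 3, where 1 monotransgenic array lay among the bitransgenic ones. The difference was 0.15 ± 0.39 (95% interval -0.67 to 0.97, limma adjusted p = 0.876) in experiment 2 and 0.81 ± 0.39 (-0.01 to 1.63, adjusted p = 1.0) in set 3, and neither passed. Over both sets the mean difference was 0.48 ± 0.28 (adjusted p = 0.613). In set 3, *Inhba* was lowest in the arrays highest in *Ogn*, which codes for the proteoglycan osteoglycin and belongs to the list of meningeal and fibroblast markers.

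*Ogn* was taken from that list after its values had been seen. Its intensity was 824, 41.2 and 652 in monotransgenic replicates 1, 2 and 3 of set 3, where *Inhba* was 111, 384 and 141. It was 153, 79.6 and 525 in those of experiment 2, where *Inhba* was 341, 429 and 186, and between 556 and 728 in the monotransgenic mice of set 1. The 12 bitransgenic arrays had *Ogn* between 8.54 and 143, with the diet group, at 8.54 to 26.8, as low in *Ogn* as the removed group, at 11.7 to 26.8. In the monotransgenic arrays, those high in *Ogn* were thus low in *Inhba*, while on the diet both were low. The summed intensity of the 10 genes of the list ran from 156 to 228 in the removed group, 184 to 214 on the diet, 843 to 993 in the monotransgenic mice of set 1, 309 to 763 and 207 to 259 in monotransgenic and bitransgenic mice of experiment 2, and 181 to 1087 and 187 to 337 in those of set 3. In the monotransgenic mice of set 1, *Ogn* alone gave 556, 728 and 636 of sums of 843, 993 and 878. *Ogn* thus made up most of these high sums, but not all of them. What was left of the sums without *Ogn* was also higher there than in the removed and diet groups. The collagen gene *Col1a1* of the same list was near the floor, between 1.39 and 21.1 in all arrays. The granule cell marker *C1ql2* was also uneven, at 210 to 297 after removal, 568 to 784 on the diet and 887 to 1105 in the monotransgenic mice of set 1, and the summed intensity of all 16 granule cell markers was 26392 to 32451, 29868 to 31262 and 32086 to 37571. The part of these markers in the differences of *Inhba* and the other genes was not tested.

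**Figure D1:**
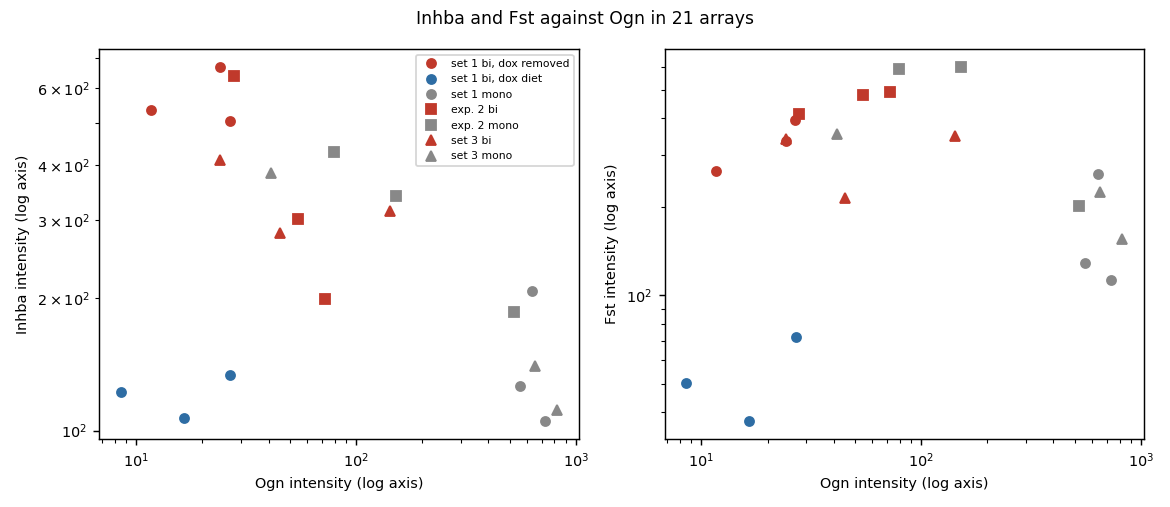
Intensity of Inhba (left) and Fst (right) against intensity of Ogn in each of the 21 arrays, on log axes. Colours are groups (blue bitransgenic on the doxycycline diet, red all other bitransgenic, grey monotransgenic) and shapes are array sets. The monotransgenic arrays with Ogn of 525 or more had Inhba of at most 208, and the diet arrays had low Inhba with Ogn of at most 26.8.

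The second *Inhba* probe set (1458291_at) was near the floor of the array, between 0.362 and 19.3, and its mean log2 level of 4.34 was below the filter. It was 8.16, 16.8 and 19.3 in monotransgenic and 1.02, 2.30 and 2.84 in bitransgenic mice of experiment 2, and 8.46, 7.68 and 5.67 against 0.362, 0.573 and 0.895 in set 3. The groups did not overlap in either set. The mean difference was -0.58 ± 0.11, with an exact permutation p of 0.005 (two-sided, within sets, the smallest that 400 labelings can give), but it did not pass in limma over all probe sets (adjusted p = 0.104). In set 1 its removed and diet groups differed by -0.04 ± 0.15. At levels this low the values are not read as a change of the transcript.

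*Inhbb*, the gene of the inhibin beta B subunit of activin B, was close to the floor throughout. Its brighter probe set lay between 2.25 and 43.6 in all 21 arrays, with 9.94, 3.27 and 2.25 in the removed group and 39.6, 4.49 and 28.7 on the diet. The difference of -0.80 ± 0.34 came with overlapping groups, and the other probe set gave 0.34 ± 0.25. In experiment 2 and set 3 the differences were -0.30 ± 0.34 and 0.18 ± 0.34 (limma adjusted p of 0.699 and 1.0).

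*Fst*, whose product follistatin sequesters activin, was lowest in the group kept on doxycycline. Its intensity was 265, 395 and 335 after removal, 50.4, 71.9 and 37.3 on the diet and 129, 113 and 258 in the monotransgenic mice of set 1. No array of the other 6 groups was as low as the highest diet array, and the removed group lay above both others of its set. The removed group differed by 2.37 ± 0.36 from the diet (5.18-fold) and by 1.01 ± 0.36 from the monotransgenic mice, and the diet group by -1.36 ± 0.36 from the latter. The second probe set of *Fst* (1421365_at) read 48.6, 113 and 69.6 after removal against 1.81, 8.30 and 4.02 on the diet, a difference of 2.20 ± 0.37.

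In experiment 2, *Fst* was 480, 415 and 493 in bitransgenic mice, which by the labels had never been given doxycycline. It was 598, 588 and 201 in monotransgenic mice, with the low value in the array of highest *Ogn*. In set 3 it was 339, 349 and 214 against 156, 354 and 224. The differences of 0.15 ± 0.36 (limma adjusted p = 0.865) and 0.34 ± 0.36 (adjusted p = 1.0) did not pass, and groups overlapped in both sets. The second probe set differed by -0.51 ± 0.37 in experiment 2, where all bitransgenic arrays lay below the monotransgenic ones, and by 0.54 ± 0.37 in set 3.

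*Pmepa1*, which codes for a membrane protein that keeps Smads from the activated receptor, followed *Fst* in set 1. It was 210, 160 and 137 after removal, 53.3, 55.1 and 74.7 on the diet and 155, 118 and 86.3 in the monotransgenic mice. The diet group lay below every array of the other 6 groups, and the removed and monotransgenic groups overlapped. The difference was 1.30 ± 0.20 between removed and diet (2.47-fold), 0.49 ± 0.20 between removed and monotransgenic, and -0.82 ± 0.20 between diet and monotransgenic. The 2 dimmer probe sets of *Pmepa1*, at 1.09 to 40.04 in all arrays, differed by 0.06 ± 0.23 and 0.40 ± 0.29 between removed and diet.

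In set 3, *Pmepa1* was 113, 117 and 117 in bitransgenic and 86.2, 110 and 83.8 in monotransgenic mice, and the groups did not overlap. The difference of 0.29 ± 0.20 did not pass in limma (adjusted p = 1.0). In experiment 2 the values were 123, 156 and 111 against 121, 137 and 116, a difference of 0.17 ± 0.20 (adjusted p = 0.719).

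*Klf10*, a transcription factor gene that TGF-beta induces early, was highest after doxycycline removal among all 7 groups. It had 1 probe set, which read 605, 612 and 554 after removal, 259, 346 and 426 on the diet and 179, 289 and 211 in the monotransgenic mice of set 1. The removed group stood clear of every other array of the series, the next highest being 426. It differed by 0.78 ± 0.23 from the diet and by 1.35 ± 0.23 from the monotransgenic mice. Unlike *Fst* and *Pmepa1*, *Klf10* was not low on the diet, which differed by 0.57 ± 0.23 from the monotransgenic mice with overlap of the groups.

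In experiment 2, *Klf10* was 159, 233 and 208 in bitransgenic and 232, 196 and 191 in monotransgenic mice, a difference of 0.01 ± 0.23 (95% interval -0.47 to 0.48, limma adjusted p = 0.990). In set 3 it was 268, 297 and 375 against 168, 283 and 199, a difference of 0.53 ± 0.23 (0.06 to 1.00, adjusted p = 1.0) that did not pass. The difference between the 2 sets' effects, -0.52 ± 0.32, did not pass either (adjusted p = 0.641).

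**Figure D2:**
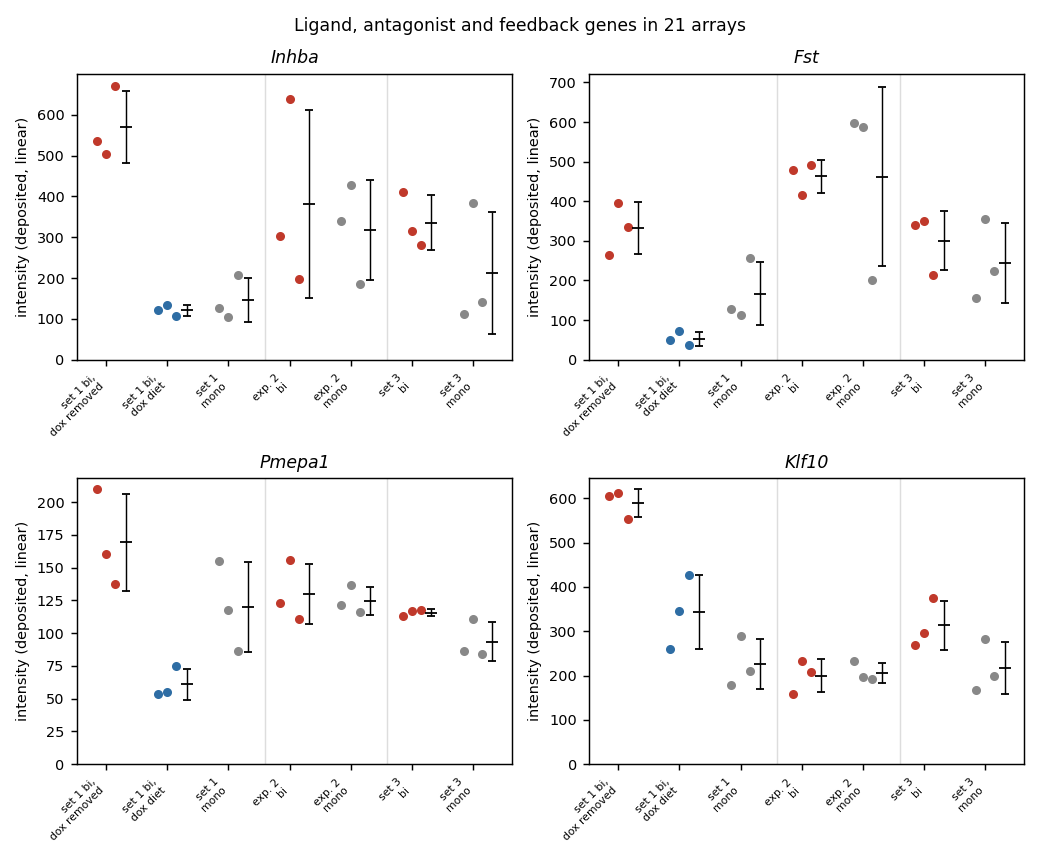
Deposited linear intensity of Inhba, Fst, Pmepa1 and Klf10 in the 7 groups; points are single arrays, and the bar beside them is the mean with the SD of 3 arrays. After doxycycline removal Inhba reached 505 to 670 and Klf10 554 to 612, while Fst and Pmepa1 were lowest on the doxycycline diet, at 37.3 to 71.9 and 53.3 to 74.7.

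Among the receptors, *Tgfbr1* went against the ligand gene in set 1. *Tgfbr1* codes for the type I receptor of TGF-beta. It was 413, 549 and 536 after removal, 831, 913 and 898 on the diet and 530, 851 and 429 in the monotransgenic mice, so that the removed group lay below the diet group without overlap. The difference was -0.81 ± 0.20 (1.75-fold lower), and the diet group was 0.59 ± 0.20 above the monotransgenic mice with overlap. Its 2 other probe sets lay between 0.866 and 17.7 and below the filter, and they differed by 0.05 ± 0.20 and 0.00 ± 0.20 between removed and diet.

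In set 3, *Tgfbr1* was 399, 438 and 425 in bitransgenic and 552, 540 and 623 in monotransgenic mice, again lower without overlap. The difference was -0.45 ± 0.20 (95% interval -0.87 to -0.03, limma adjusted p = 1.0) and did not pass. In experiment 2 it was 354, 496 and 434 against 564, 393 and 414, a difference of -0.09 ± 0.20 (adjusted p = 0.858). The mean over both sets was -0.27 ± 0.14 (adjusted p = 0.571, exact permutation p of 0.06, two-sided and unadjusted).

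*Acvr1c*, the gene of the type I receptor ALK7, varied widely within groups. It was 1051, 864 and 625 after removal, 300, 357 and 834 on the diet and 562, 629 and 747 in the monotransgenic mice of set 1, with overlap of all 3 groups. The difference of the removed from the diet group was 0.86 ± 0.49, and the second probe set, at 74.7 to 351 in all arrays, gave 0.84 ± 0.36. In experiment 2 *Acvr1c* was 229, 797 and 532 against 440, 227 and 674, and in set 3 it was 263, 352 and 271 against 560, 187 and 903. These differences, 0.13 ± 0.49 and -0.65 ± 0.49, did not pass (limma adjusted p of 0.917 and 1.0). The low 187 stood in the monotransgenic array of set 3 that had the highest *Fst* and *Inhba* and the lowest *Ogn* of its group.

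*Acvr2a*, the gene of a type II activin receptor, differed little. It was 984, 846 and 926 after removal, 929, 928 and 670 on the diet and 982, 981 and 1024 in the monotransgenic mice of set 1, a difference of 0.12 ± 0.23 between removed and diet. In experiment 2 and set 3 it ranged from 872 to 1598, with differences of -0.10 ± 0.23 (95% interval -0.57 to 0.37, limma adjusted p = 0.851) and 0.03 ± 0.23 (-0.44 to 0.50, adjusted p = 1.0). The second probe set of *Acvr2a* lay between 114 and 205.

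*Smad7*, whose product is an inhibitory Smad that the pathway itself induces, was read by 2 probe sets of similar brightness. The first (1443771_x_at) was 89.2, 115 and 96.8 after removal, 94.5, 67.2 and 52.0 on the diet and 84.8, 82.1 and 77.3 in the monotransgenic mice of set 1. The second (1423389_at) was 104, 129 and 105, then 74.4, 57.6 and 64.5, then 69.0, 62.7 and 84.1. The deposited intensities of the removed and diet groups overlapped in the first probe set, and the normalized values did not. The removed group was higher in both, by 0.49 ± 0.17 and 0.71 ± 0.19. The removed group also lay above the monotransgenic group in both, by 0.29 ± 0.17 and 0.60 ± 0.19.

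In the sets that did not choose it, *Smad7* had the lowest p of the 10 genes. The first probe set was 113, 74.4 and 117 in bitransgenic against 104, 85.9 and 102 in monotransgenic mice of experiment 2, and 95.7, 98.6 and 114 against 74.7, 74.0 and 64.9 in set 3, where the groups did not overlap. The second was 67.7, 79.7 and 61.8 against 49.2, 75.9 and 49.6 in experiment 2 and 105, 94.3 and 80.9 against 73.6, 105 and 64.1 in set 3. Its mean difference over both sets was 0.33 ± 0.12 in the first and 0.33 ± 0.13 in the second probe set, with limma adjusted p of 0.425 and 0.496. Exact permutation within the sets gave p of 0.02 and 0.035 (two-sided, unadjusted, 1 of 10 genes looked at). With array weights, which count unlike arrays less, the first probe set's 0.40 passed in limma (adjusted p = 0.0353), in a fit that called 7.02% of all genes.

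*Skil*, which codes for the Smad corepressor SnoN, was the brightest of these probe sets and had its highest group mean after removal. It was 4279, 3477 and 3596 in the removed group, 2760, 2604 and 2821 on the diet and 2501, 2463 and 2302 in the monotransgenic mice of set 1, and no groups of the set overlapped. The removed group differed by 0.40 ± 0.14 from the diet and 0.58 ± 0.14 from the monotransgenic mice. Its other probe set, at 1.18 to 25.7, was below the filter and differed by 0.05 ± 0.24 between removed and diet.

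In experiment 2, *Skil* was 3488, 2351 and 3656 in bitransgenic and 3424, 2508 and 2472 in monotransgenic mice, and in set 3 it was 2842, 2542 and 2894 against 2329, 2821 and 2384. The differences of 0.10 ± 0.14 and 0.13 ± 0.14 did not pass (limma adjusted p of 0.770 and 1.0). In experiment 2 the result turned on the arrays. Without bitransgenic replicate 2 and monotransgenic replicate 1 the difference was 0.42 (limma adjusted p = 0.0324), in a fit that called 518 of 12499 genes. The actin 3' to 5' log2 ratios of these 2 arrays, 6.45 and 5.97, were the highest of the series. With array weights the difference was 0.39 (limma adjusted p = 0.0374), in a fit that called 7.12% of all genes. The actin ratio, a sign of RNA quality, was between 4.17 and 5.41 in the 19 other arrays, and its part in the result was not tested.

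**Figure D3:**
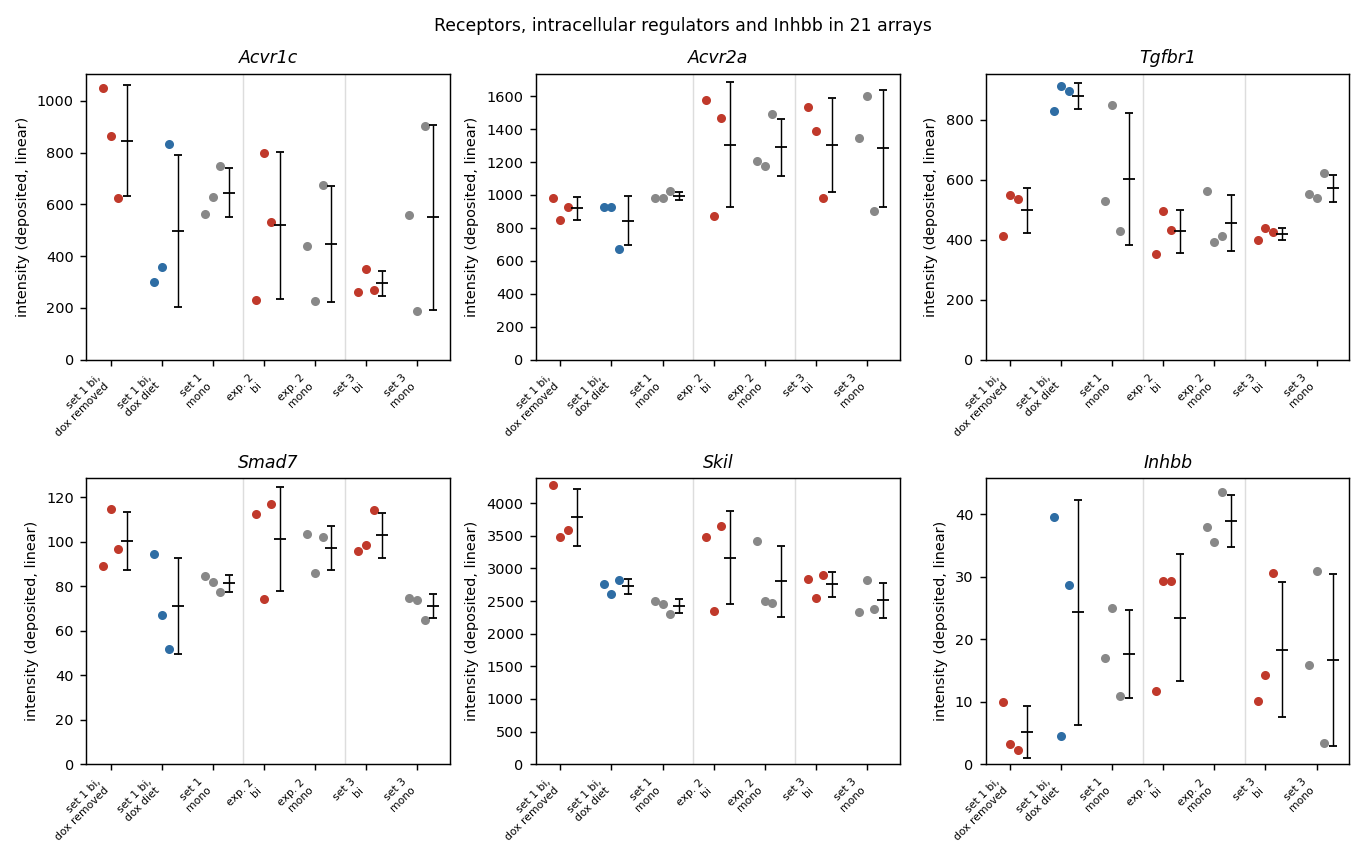
Deposited linear intensity of Acvr1c, Acvr2a, Tgfbr1, Smad7, Skil and Inhbb in the 7 groups; points are single arrays, and the bar beside them is the mean with the SD of 3 arrays. Tgfbr1 had its highest group mean on the doxycycline diet, at 831 to 913, and Inhbb stayed at 43.6 or less. Skil had its highest group mean after removal, at 3477 to 4279, with bitransgenic arrays of experiment 2 reaching 3656.

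Seen together, 8 of the 10 genes were higher and 2 lower after removal than on the diet. For 6 the removed arrays all lay above the diet arrays and for 1 all lay below; the shares over all 12499 genes tested were 7.99% and 8.25%. Adjusted p in limma was under 0.05 for 2 of the 10 and for 0.032% of all genes. This is no test of the 10, since *Fst*, *Inhba* and *Pmepa1* were chosen for their rise in this comparison. The median difference was 0.63, against -0.01 over all genes. Against the monotransgenic mice, 5 genes of the removed group lay above and 2 below without overlap (10.8% and 11.4% of all genes), with 1 past the threshold (0.072% of all genes). The diet group lay above in 1 and below in 3 (7.30% and 7.58%), with 0 past the threshold in limma (0.024% of all genes) and 4 at an unadjusted p under 0.05, against 481 of 12499 genes. These 3 comparisons share groups and the genes were chosen on them. Their counts past a threshold are therefore a description and no test, and nothing is read from any of these counts.

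In the arrays that did not choose the genes, 0 of the 10 passed in limma in experiment 2 (0.096% of all genes passed), in set 3 (0% passed), in the mean of both (0.016%) or in the difference between the sets (0%). At an unadjusted p under 0.05 the counts were 0, 3, 1 and 0, against 1806, 524, 1187 and 1011 of 12499 genes. In experiment 2, 0 genes of the 10 had groups without overlap, where 5.12% of all genes did in the higher and 3.57% in the lower direction. In set 3, *Pmepa1* and *Smad7* lay above and *Tgfbr1* below without overlap, where 8.78% and 4.72% of all genes did. The medians of the 10 differences were 0.11 and 0.23, against 0.02 and 0.03 over all genes. *Rtn4r* passed in the mean of both sets, at 2.20 ± 0.28 (adjusted p = 0.00112). With 3 arrays against 3, an exact permutation test cannot go below 0.1.

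**Figure D4:**
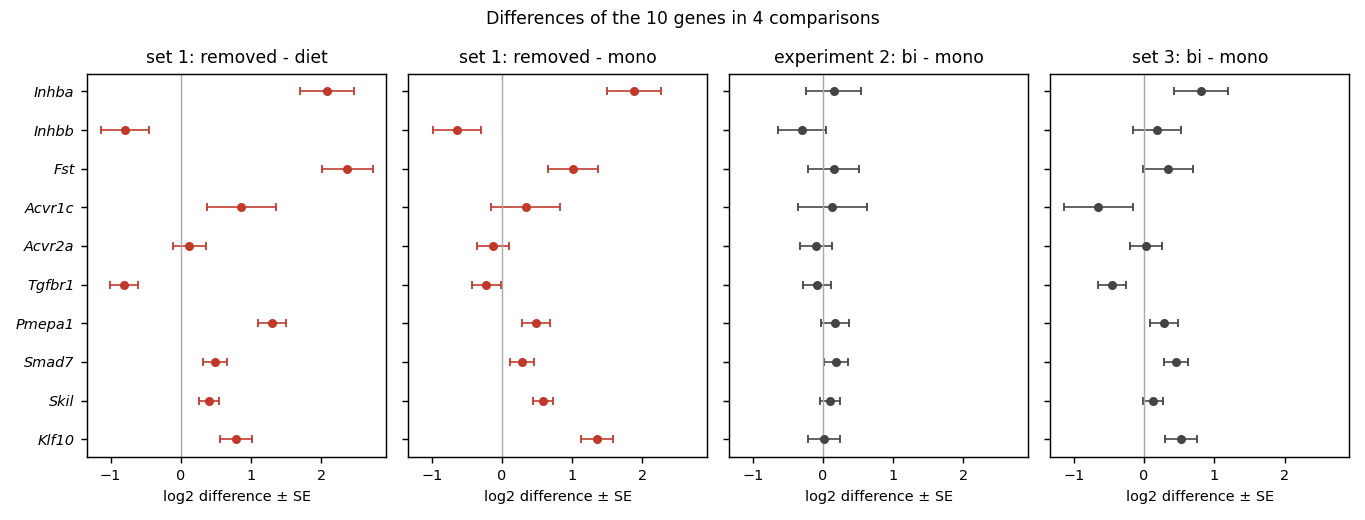
Differences of the 10 genes on the normalized log2 scale with their SE (n = 3 against 3 arrays), for the removed group against the diet and against monotransgenic mice in set 1 (red; the comparisons that chose members) and for bitransgenic against monotransgenic mice in experiment 2 and set 3 (black). Fst and Inhba were 2.37 and 2.08 above the diet in set 1, and in experiment 2 no gene was more than 0.30 from 0.

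Pairs of *Fst*, *Inhba*, *Pmepa1* and *Klf10* were compared across the 6 arrays of experiment 2 and the 6 of set 3, 12 relations in all. In experiment 2, *Inhba* and *Pmepa1* varied together, with Pearson's r of 0.88 (exact permutation p = 0.00278, adjusted 0.025) and Spearman's rho of 0.94 (exact p = 0.0167, adjusted 0.1). Without the 2 arrays farthest from the median of *Inhba*, r was 0.90 over 4 arrays. On the deposited scale, without quantile normalization, 0 of the 12 relations passed, this one included. The array highest in both, bitransgenic replicate 2, was also the one with the highest actin ratio. The other 5 relations of experiment 2 had r between 0.29 and 0.65 and did not pass (adjusted exact permutation p of 0.286 or more). In set 3, *Pmepa1* and *Klf10* had r of 0.95 (exact permutation p = 0.00417, adjusted 0.025) and rho of 0.94 (exact p = 0.0167, adjusted 0.1), and *Fst* and *Inhba* had r of 0.89 (exact p = 0.00972, adjusted 0.0389) and rho of 0.83 (exact p = 0.0583, adjusted 0.233). Without the 2 farthest arrays these r were 0.81 and 0.71. The other 4 relations of set 3 had r between 0.55 and 0.90 and did not pass (adjusted exact permutation p of 0.153 or more). Monotransgenic replicates 1 and 3 were the 2 lowest arrays of the set in *Inhba*, *Pmepa1* and *Klf10* and lay apart from the other 4, so the r of set 3 span 2 clusters, each too small to be tested apart.

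**Figure D5:**
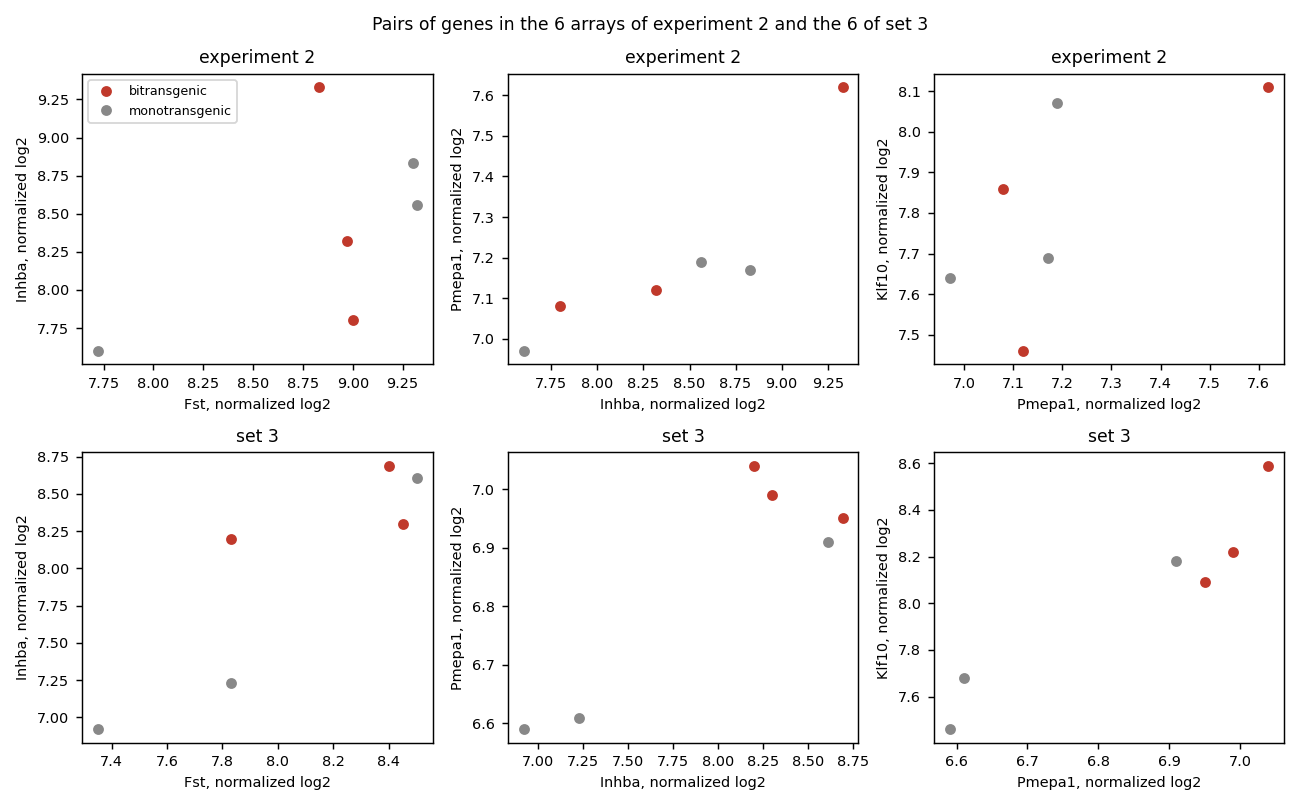
Normalized log2 levels of Fst and Inhba, Inhba and Pmepa1, and Pmepa1 and Klf10 in the 6 arrays of experiment 2 (top) and the 6 of set 3 (bottom); each point is an array, red bitransgenic and grey monotransgenic. In experiment 2 Inhba and Pmepa1 had r of 0.88, and in set 3 a pair of monotransgenic arrays lay apart from the other 4.

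As a description over all 21 arrays, with the mean of each array set taken away, the genes most like *Inhba* among 12499 were *Nefm*, *Cotl1*, *Prss23*, *Homer2* and *Fam107b*, with r from 0.91 to 0.88. *Nefm* codes for a neurofilament subunit, *Cotl1* for an actin-binding protein and *Homer2* for a postsynaptic scaffold protein. Those most like *Fst* were *Pdgfc*, a growth factor gene, *Asb11*, *Prss23*, *Fam107b* and *Hectd2*, from 0.84 to 0.80, with *Inhba* sixth at 0.80. *Prss23* and *Fam107b* stood in both lists. Those most like *Pmepa1* were *Crym*, *Cacna2d3*, *B3gat3*, *Akap2* and *Ublcp1*, from 0.75 to 0.72, with *Fst* at 0.69 and *Inhba* at 0.68. Those most like *Klf10* were *Insig1*, *Fam169a*, *Hspa8*, *Pde4b* and *Zdhhc23*, from 0.80 to 0.78. The removed and diet arrays that chose the members are among the 21. Against the same 4 genes, *Tgfbr1* had r of -0.64 with *Fst*, -0.58 with *Pmepa1*, -0.54 with *Inhba* and -0.11 with *Klf10*.

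The rest of the pathway was read from 6 lists of 79 genes, of which 49 were tested. In every comparison 0 of the 49 passed in limma. Between removed and diet, 19 were higher and 30 lower, with a median of -0.07 against -0.01 over all genes. For 4 of them the removed arrays lay above the diet arrays and for 6 below (8.16% and 12.2% of the 49).

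Among other ligands, 2 of 9 were higher and 7 lower after removal. *Gdf10*, which codes for a growth and differentiation factor, was 35.0 to 101 after removal, 154 to 246 on the diet and 150 to 220 in the monotransgenic mice of set 1. The removed group differed from the diet by -1.31 ± 0.32 (limma adjusted p = 0.183). Its mean was 76.6. Means of *Gdf10* in bitransgenic and monotransgenic mice were 49.4 and 75.5 in experiment 2 and 72.8 and 88.3 in set 3, so the removed group was not low beside those sets. *Inha*, whose alpha subunit pairs with a beta subunit to form inhibin in place of activin, was 25.3 to 58.0 after removal against 81.0 to 96.5 on the diet, a difference of -0.78 ± 0.23 (adjusted p = 0.449). Both removed groups lay clear below the diet group, and neither gene passed. In experiment 2 *Inha* differed by -0.36 ± 0.23 (adjusted p = 0.463).

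Of the 9 other receptors and co-receptors tested, 4 were higher and 5 lower after removal than on the diet. *Bmpr2*, a type II receptor gene for bone morphogenetic proteins, had the lowest p, at 0.12 ± 0.10 (limma adjusted p = 0.999). Of the 5 signalling Smads, *Smad1* was at -0.31 ± 0.15 between removed and diet (adjusted p = 0.993). *Smad2*, which activin and TGF-beta receptors phosphorylate, was 111 to 130 in bitransgenic against 87.7 to 96.5 in monotransgenic mice of experiment 2, a difference of 0.49 ± 0.14 (adjusted p = 0.169). In set 3 it was 104 to 130 against 102 to 131, and the difference between the 2 sets' effects, 0.46 ± 0.20, did not pass (adjusted p = 0.606).

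Of the 6 extracellular inhibitors and latency proteins, *Ltbp3* codes for a protein that binds latent TGF-beta. Like *Fst*, it was lowest on the diet in set 1, but unlike *Fst* its removed and monotransgenic intensities overlapped. It was 206 to 291 after removal, 138 to 146 on the diet and 242 to 286 in the monotransgenic mice, with differences of 0.71 ± 0.22 (limma adjusted p = 0.5) for removed against diet and -0.79 ± 0.22 (adjusted p = 0.518) for diet against monotransgenic. Of the 11 intracellular inhibitors and partners, 6 were higher and 5 lower after removal than on the diet, and 10 were higher in set 3, 4 of them without overlap, where 8.78% of all genes lay above without overlap. *Tgif2*, a corepressor gene, differed by 0.48 ± 0.23 there (adjusted p = 1.0).

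Other transcripts known to be induced by TGF-beta or bone morphogenetic proteins did not move as one. Of 9 tested, 3 were higher and 6 lower after removal than on the diet. *Klf11*, a relative of *Klf10*, was 36.4 to 40.6 after removal against 23.1 to 33.4 on the diet, a difference of 0.37 ± 0.20 (limma adjusted p = 0.999), and it differed by 0.56 ± 0.20 in set 3 (adjusted p = 1.0). *Id3*, an inhibitor of basic helix-loop-helix factors that bone morphogenetic proteins induce, was 5.15 to 19.6 after removal against 29.9 to 38.5 on the diet, a difference of -0.77 ± 0.25 (adjusted p = 0.590). *Id2*, of the same family, differed by -0.60 ± 0.20 in the mean of experiment 2 and set 3 (adjusted p = 0.386).

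Immediate early genes were set beside the members because *Inhba* is known as an activity-induced gene. Of 20 tested, 16 were higher and 4 lower after removal than on the diet, with a median of 0.23 against -0.01 over all genes, and 0 passed in limma. *Nptx2*, which codes for a secreted pentraxin of excitatory synapses, was 165 to 247 after removal, 59.7 to 119 on the diet and 126 to 365 in the monotransgenic mice, a difference of 1.30 ± 0.29 between removed and diet (limma adjusted p = 0.158). *Npas4*, an activity-induced transcription factor, was 12.3 to 27.4 after removal, 0.534 to 6.16 on the diet, near the floor of the array, and 13.8 to 22.1 in the monotransgenic mice, which overlapped the removed group. Its difference between removed and diet was 0.86 ± 0.24 (adjusted p = 0.383). Against the monotransgenic mice, 10 of the 20 were higher and 10 lower after removal (median -0.02), and 5 were higher and 15 lower on the diet (median -0.26). In experiment 2, 10 were higher and 10 lower (median 0.03), and in set 3, 7 were higher and 13 lower (median -0.18). The part of neuronal activity in the levels of *Inhba* was not tested.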

How the data were processed

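The deposited values are the intensity of each probe set on a linear scale, scaled by the authors, as the values themselves show, so that every array has a mean of 150 once 2% of probe sets are trimmed at either end. The software behind them was not given in the sources used here. Detection calls were not used. Values were transformed as log2(value + 16) and quantile normalized, since array medians spread by 0.30, above a limit of 0.25. The upper 60% of probe sets by mean were kept, and the brightest probe set stood for each gene, which gave 12499 genes. Fold changes are on the log2(value + 16) scale, which understates the change of dim genes. Other probe sets of the 10 genes come from a fit over all probe sets.

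One limma fit (limma 3.58.1, R 4.3.3; eBayes with a variance trend, 14 residual degrees of freedom) had a coefficient per group over 21 arrays, with Benjamini-Hochberg adjustment over all genes and a threshold of 0.05. Each SE, interval and p-value of this fit thus draws on the spread in all 7 groups, set 1 included. The fit was tested on simulated data with independent noise in every gene and array, which does not cover differences in quality between arrays. Exact tests permuted 3 against 3 arrays (20 labelings), or within both sets (400). Python 3.11.15 and matplotlib 3.10.9 drew the figures. Names came from GEO's platform annotation: of 45101 probe sets, 34945 had 1 symbol, 932 several, 9160 none and 64 were controls. A probe set shared by *Orc4* and *Acvr2a* was left out. Of each pathway list at most the 2 genes of lowest p were named per comparison, and for *Fst*, *Inhba*, *Pmepa1* and *Klf10* the 5 most correlated genes. The members and lists were chosen with earlier results of these data known. Groups of 3 arrays limit the precision. Alternatives were pseudocounts of 1 and 64, other filters, scalings, probe set rules and fits, array weights, title prefix as a factor, and leaving out arrays.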

Additional observations from a re-analysis of the deposited data

How the results depend on the processing

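Counts of genes past the threshold moved by more than 1.5 times as follows. With array weights the counts were 68 (removed against diet, in place of 4), 254 (removed against monotransgenic, in place of 9), 41 (diet against monotransgenic, in place of 3), 890 (experiment 2, in place of 12), 39 (set 3, in place of 0), 877 (mean of both, in place of 2) and 52 (difference between the sets, in place of 0). With the arrays of a set fitted alone they were 85, 330, 32, 0 and 1 for the first 5. Without the pair of highest actin ratio they were 518, 88 and 135 in experiment 2, the mean and the difference between sets. All kept probe sets gave 1 for diet against monotransgenic, 84 for experiment 2, 10 for the mean and 2 for the difference. Averaging the probe sets of a gene gave 5, 1 and 19 for removed and diet against monotransgenic and experiment 2. Centring on the 75th percentile gave 7 and 14 for the removed group and 2 in set 3, and no variance trend gave 2, 4 and 1 in set 1. Removed against monotransgenic gave 5 and 14 with pseudocounts of 1 and 64. Diet against monotransgenic gave 0 with no filter. Experiment 2 gave 5 with a pseudocount of 64, 2 with no filter, 1 with the upper 40% of probe sets and 40 on the deposited scale. The cause was not tested.

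With one array left out, the counts ran from 0 to 4, 0 to 6 and 0 to 0 in set 1, 5 to 646 in experiment 2, 0 to 73 in set 3 (73 without monotransgenic replicate 2), 2 to 82 in the mean and 0 to 8 in the difference between sets. With one array left out, member differences that changed sign ran in experiment 2 from -0.38 to 0.42 (*Fst*), -0.27 to 0.50 (*Inhba*), -0.01 to 0.26 (*Pmepa1*), -0.14 to 0.18 (*Klf10*), -0.30 to 0.60 (*Acvr1c*), -0.28 to 0.16 (*Acvr2a*), -0.21 to 0.08 (*Tgfbr1*) and -0.03 to 0.32 (*Skil*). They ran in set 3 from -0.14 to 0.47 (*Inhbb*) and -0.21 to 0.22 (*Acvr2a*), and in the mean from -0.02 to 0.40 (*Fst*), -0.22 to 0.08 (*Inhbb*) and -0.16 to 0.10 (*Acvr2a*). In set 1, where the 10 genes are described without a test, they ran from -0.05 to 0.20 for *Acvr2a* (removed against diet), -0.44 to 0.06 for *Tgfbr1* (removed against monotransgenic), and -0.38 to 0.04 for *Inhba* and -0.11 to 0.59 for *Inhbb* (diet against monotransgenic).

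Directions of the members in set 1 between removed and diet held in all other settings; *Inhbb* ran from -1.76 to -0.32 (pseudocounts of 1 and 64, in place of -0.80), *Fst* was 1.78 with a pseudocount of 64 and *Pmepa1* 0.59 as the mean of its probe sets. Signs turned in experiment 2 for *Fst* (-0.18) and *Pmepa1* (-0.06) as the mean of probe sets, *Inhba* (-0.10 with array weights, -0.15 without the actin pair), *Klf10* (-0.05 on the deposited scale, -0.01 without the pair), *Acvr1c* (-0.05 with weights, -0.16 without the pair), *Acvr2a* (0.12 centred on the 75th percentile, 0.07 as the mean of probe sets, 0.11 without the pair) and *Tgfbr1* (0.05 centred, 0.00 with weights). In set 3 they turned for *Fst* (-0.05 with title prefix as a factor) and *Acvr2a* (-0.03 as the mean of probe sets). In the mean of both they turned for *Inhbb* (0.01 with weights) and *Acvr2a* (0.01 on the deposited scale, 0.09 centred, 0.02 as the mean of probe sets, 0.10 with weights, 0.07 without the pair). *Skil* passed in the mean with array weights (0.27, limma adjusted p = 0.0243), in a fit that called 7.02% of all genes.

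Of the 12 relations between members, 3 passed by Pearson's r, 0 by Spearman's rho and 0 on the deposited scale. Without the 2 farthest arrays, r turned to -0.12, -0.56 and -0.45 for *Fst* with *Inhba*, *Pmepa1* and *Klf10* in experiment 2, to -0.04 for *Inhba* with *Klf10* there, and to -0.89 and -0.83 for *Inhba* with *Pmepa1* and *Klf10* in set 3.

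No paired analysis was possible because the replicate numbers used here are only names, and the labels state no pairing. In set 3 some monotransgenic and bitransgenic titles share a prefix whose meaning the labels do not give; with it as a factor, set 3 gave 0 calls and 0 of the 10 genes passed (adjusted p of 1.0).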
